A study of Mus musculus with 15 samples.

Results

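The nucleolar ribosome assembly genes are 43 genes whose products work in the nucleolus, or just after it, to make the ribosomal subunits. They were chosen by name, and their values were taken from the probe sets (groups of array probes summarised as 1 value) whose platform annotation gives that gene alone, keeping the one with the highest average signal where a gene had several. Of the 43, 41 had such a probe set among the 19938 genes named on the array, and 39 lay above the filter on low values and were tested with the 10069 genes that passed it. Noc2l had no probe set under its name, and Ppan had only one shared with a neighbouring transcript. Rrs1 and Rrp15 lay below the filter.

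The arrays compared the choroid plexus, the tissue in the brain ventricles that secretes cerebrospinal fluid, of 5 Add1 null, 5 Add1 heterozygous and 5 Add1 wild-type mice. Add1 encodes alpha-adducin, which caps and cross-links actin filaments of the membrane skeleton. All mice were C57BL/6J, labelled male, and 3 weeks of age, an age that the design text places before hydrocephalus develops, and each mouse gave 1 array. The labels name no tissue-restricted deletion or transgene, and which part of Add1 was deleted is unknown here. Whole tissue was measured, so a smaller share of cells of a type and less RNA per cell cannot be told apart.

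Ribosomes are made in the nucleolus, where RNA polymerase I transcribes the long precursor of the ribosomal RNAs. Box C/D particles guide methylation of that precursor and box H/ACA particles guide its pseudouridylation, while the small subunit processome and a separate set of large subunit factors fold, cut and trim it. In the choroid plexus the epithelium is a highly secretory cell layer that makes large amounts of a few proteins, transthyretin among them.

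Values are log2 signals as deposited, so a difference of 1 is a doubling of signal and small differences near the background are compressed. A gene is called changed where limma's moderated test, adjusted over the 10069 genes by the Benjamini-Hochberg method, gave a value under 0.05. The Add1 signal lay between 7.41 and 7.76 in null arrays, 7.68 and 7.92 in heterozygous arrays and 7.78 and 8.04 in wild-type arrays, with a difference, null minus wild-type, of -0.31 (limma adjusted p = 0.0240). Xist, the RNA of the inactive X chromosome, stood at 9.09 and 9.69 in null arrays 1 and 5, where 3 Y-linked genes stood between 3.19 and 4.27. In the other 13 arrays Xist lay between 3.11 and 3.88 and the Y-linked genes between 6.92 and 7.95, so those 2 null arrays went against the label male. Heterozygous array 1 had a mean signal of 6.84 over 10 neuronal markers, against 4.85 to 5.47 in the other arrays. The mean signal of 10 epithelial markers was 11.04 in null, 11.06 in heterozygous and 11.05 in wild-type arrays.

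Between null and wild-type choroid plexus, 2 of the 39 tested members fell in null tissue and none rose. They were Nop10, a core protein of the box H/ACA particles, and Mrto4, an assembly factor of the large subunit. Of all genes tested, 7.73% were called in this comparison, 4.17% higher and 3.56% lower, and the 2 lower members are 5.13% of the 39 tested. The remaining members mostly differed by small amounts. The median difference, null minus wild-type, was -0.084 over all 39 tested, against 0.012 over all genes tested, and 30 of 39 (76.9%) lay below 0, against 46.1% of all genes. At an unadjusted p under 0.05 there were 9 members (23.1%), against 24.0% of all genes, and 8 of them were lower in null arrays (20.5%), against 10.8% of all genes. Without null arrays 1 and 5 the count stayed at 2 members, Nop10 and Mrto4, while 3.93% of all genes were called. Null array 2 weighed most on the count. Without it 5 members (12.8%) were called, all lower, the added ones being Rrp9, Rrp12 and Bop1, and 14.1% of all genes were called.

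**Figure D1:**
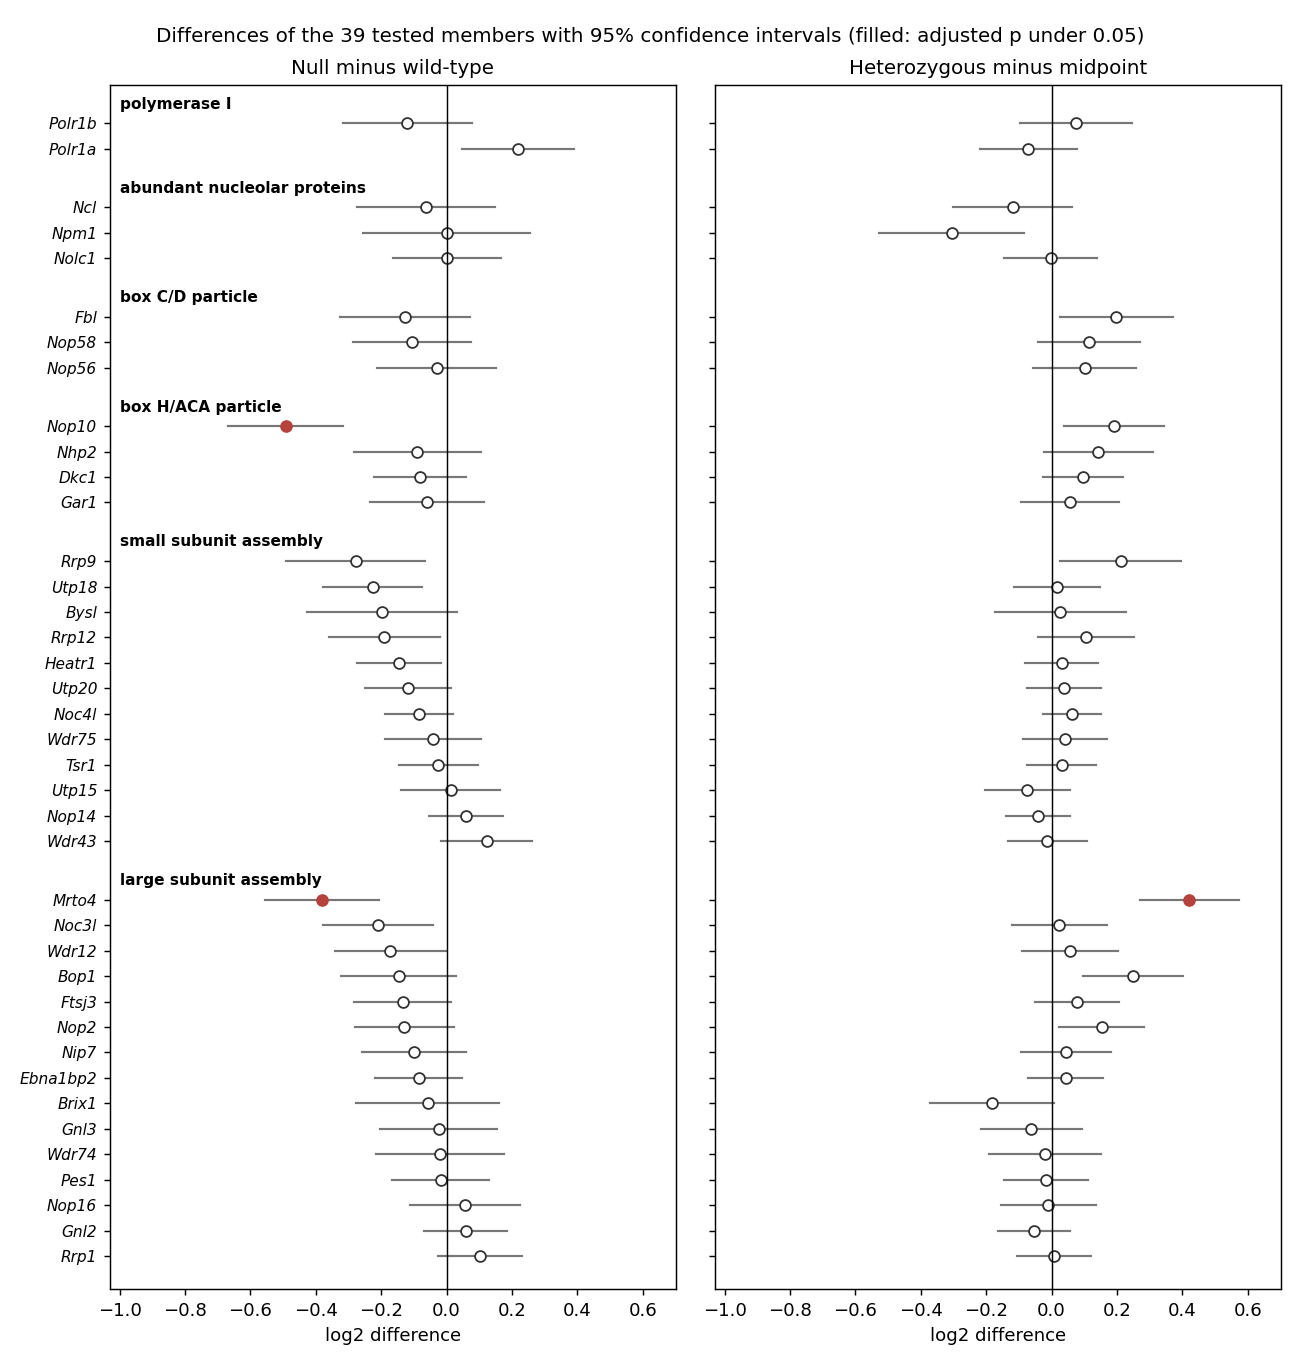
Differences on the log2 scale of the 39 tested members, null minus wild-type on the left and heterozygous minus the midpoint of null and wild-type on the right, grouped by role. Points are limma estimates, lines their 95% confidence intervals, and filled points have an adjusted p under 0.05. Nop10 and Mrto4 are filled on the left, at -0.49 and -0.38, and Mrto4 alone is filled on the right, at 0.42.

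Nop10 is a small protein that holds the box H/ACA enzyme dyskerin in its active form, in the particles that turn uridines of ribosomal RNA into pseudouridine and in telomerase. Nop10 measured 8.10, 8.41, 8.27, 8.53 and 8.17 in the 5 null arrays, 8.89, 8.69, 8.73, 8.75 and 8.60 in the heterozygous arrays and 8.93, 8.74, 8.91, 8.65 and 8.71 in the wild-type arrays. Every null array lay below every heterozygous and every wild-type array. The null level was 71.1% of the wild-type level, a log2 difference of -0.49 (95% interval -0.67 to -0.32; limma adjusted p = 0.00258). Against heterozygous arrays it was 73.9%, a log2 difference of -0.44 (95% interval -0.61 to -0.26; limma adjusted p = 0.00622). Heterozygous and wild-type arrays overlapped and differed by -0.06 (95% interval -0.23 to 0.12). Without null arrays 1 and 5 the differences of Nop10 were -0.38 from wild-type (limma adjusted p = 0.0201) and -0.33 from heterozygous (limma adjusted p = 0.0469). Both calls of Nop10 ended with the number in the sample description as a covariate, at -0.43 from wild-type (limma adjusted p = 0.0808) and with a limma adjusted p of 0.123 from heterozygous. The meaning of that number is not stated, arrays of different genotypes share 429, 432 and 460, and it averaged 464.6 in null, 436.2 in heterozygous and 434.6 in wild-type samples, so it ran with genotype.

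The other members of the box H/ACA particles did not pass the test between null and wild-type. Dkc1, which encodes dyskerin, the pseudouridine synthase itself, lies on the X chromosome. In null arrays 1 to 5 Dkc1 stood at 6.24, 6.52, 6.63, 6.52 and 6.63, in heterozygous arrays at 6.66, 6.63, 6.72, 6.61 and 6.60 and in wild-type arrays at 6.56, 6.67, 6.59, 6.53 and 6.60. Null array 1, one of the arrays with Xist signal, was the lowest of all, while null array 5, the other one, equalled the highest null value. Its difference, null minus wild-type, was -0.08 (95% interval -0.22 to 0.06; limma adjusted p = 0.490). Gar1, which helps the particle release its product, differed by -0.06, and Nhp2, which binds the guide RNA, by -0.09. All 4 members lay below 0 in this comparison, against 46.1% of all genes. Of the 4, 1 passed the test and was lower (25.0%), against 7.73% of all genes called and 3.56% called lower.

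**Figure D2:**
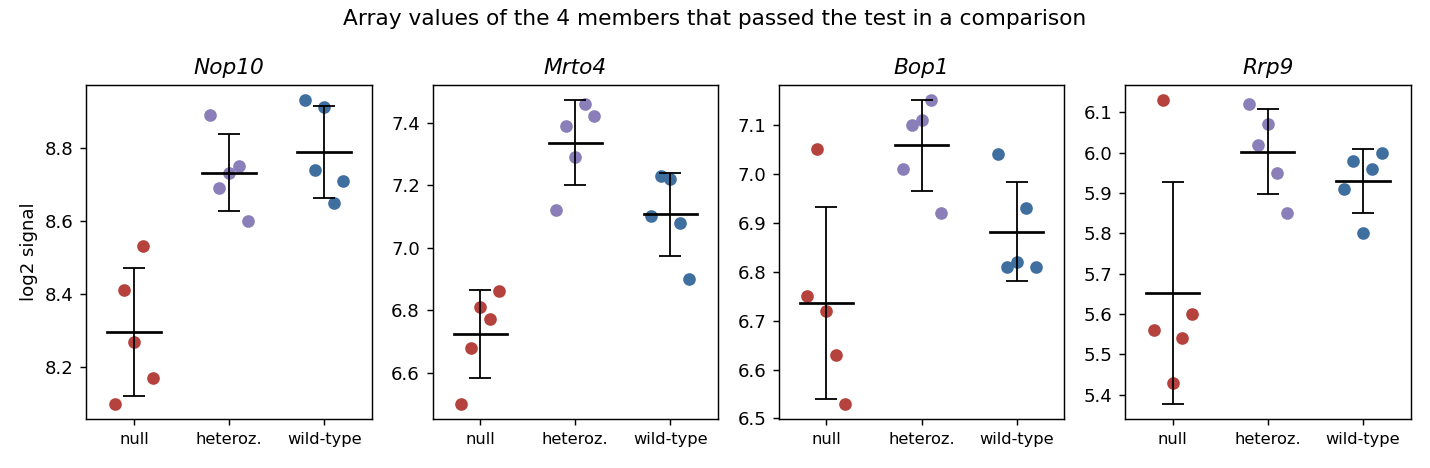
Signal on the log2 scale (vertical axis, each panel with its own range) in null, heterozygous and wild-type arrays for Nop10, Mrto4, Bop1 and Rrp9. Points are single arrays, horizontal lines means and bars 1 SD over 5 arrays. The null arrays of Nop10 (8.10 to 8.53) and of Mrto4 (6.50 to 6.86) lie below all arrays of the other genotypes, and null array 2 of Rrp9 (6.13) lies above all of them.

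Mrto4 encodes a protein that occupies, on the immature large subunit, the place later taken by the ribosomal stalk protein P0. The signal of Mrto4 was 6.50, 6.68, 6.81, 6.77 and 6.86 in null arrays 1 to 5, 7.12, 7.39, 7.29, 7.46 and 7.42 in the heterozygous arrays and 7.10, 7.23, 7.22, 7.08 and 6.90 in the wild-type arrays. All 5 null arrays lay below all other arrays, and the heterozygous arrays lay highest, overlapping the wild-type range in part. The null level was 76.7% of wild-type, a log2 difference of -0.38 (95% interval -0.56 to -0.21; limma adjusted p = 0.0103). It was 65.4% of the heterozygous level, a log2 difference of -0.61 (95% interval -0.79 to -0.44; limma adjusted p = 7.2e-04). Without null arrays 1 and 5 the differences of Mrto4 were -0.35 from wild-type (limma adjusted p = 0.0354) and -0.58 from heterozygous (limma adjusted p = 0.00371). With the Xist signal as a covariate the call against wild-type ended, at -0.36 (limma adjusted p = 0.0517).

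A second probe set carries the name Mrto4, and in probe set number it lies among genes of chromosome 12, on which 9 of its 10 neighbours sit. The probe set described above has its neighbours on chromosome 4, as the gene itself does. The second one averaged 6.56 ± 0.18 in null, 7.19 ± 0.18 in heterozygous and 7.02 ± 0.17 in wild-type arrays (SD, n = 5 each). With all probe sets tested separately in limma, it fell in null tissue by 0.45 against wild-type (limma adjusted p = 0.0141) and by 0.63 against heterozygous (limma adjusted p = 0.00272). Both probe sets thus gave the same order of genotypes, with heterozygous arrays highest.

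The sequence before the start of transcription is shown for these 2 genes, which carry the called differences, in lower case because none of the 7 searched motifs lies in it. It is the 250 bases before the annotated start, 5′ to 3′ on the strand of the gene, from RefSeq on GRCm38.p6, at chr2:112261676-112261925 on the plus strand for Nop10 and chr4:139352577-139352826 on the minus strand for Mrto4.
Nop10: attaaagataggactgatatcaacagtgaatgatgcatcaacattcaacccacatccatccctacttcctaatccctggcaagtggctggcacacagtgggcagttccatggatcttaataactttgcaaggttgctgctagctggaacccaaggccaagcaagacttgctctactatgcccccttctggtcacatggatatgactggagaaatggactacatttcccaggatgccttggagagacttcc
Mrto4: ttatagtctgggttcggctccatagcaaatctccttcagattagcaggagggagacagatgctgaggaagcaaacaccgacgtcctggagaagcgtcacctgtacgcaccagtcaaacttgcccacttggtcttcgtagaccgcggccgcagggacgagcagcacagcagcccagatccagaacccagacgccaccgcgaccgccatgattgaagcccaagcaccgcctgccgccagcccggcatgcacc

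Of the 15 tested large subunit members 1, Mrto4, fell between null and wild-type (6.67%), against 3.56% of all genes called lower. In this role 12 (80.0%) lay below 0, against 46.1% of all genes, with a median difference of -0.086. Bop1, Pes1 and Wdr12 encode the PeBoW complex, which is needed to cut the precursor of the large subunit RNAs. Bop1 measured 6.75, 7.05, 6.72, 6.63 and 6.53 in the 5 null arrays, 7.01, 7.10, 7.11, 7.15 and 6.92 in the heterozygous arrays and 7.04, 6.81, 6.82, 6.93 and 6.81 in the wild-type arrays. Null array 2 lay inside the range of the other genotypes, and the other null arrays lay below all of them. Bop1 differed by -0.15 between null and wild-type (95% interval -0.32 to 0.03; limma adjusted p = 0.302). In null arrays 1 to 5 Wdr12 stood at 6.17, 6.13, 6.16, 6.18 and 6.12, in heterozygous arrays at 6.41, 6.46, 6.30, 6.23 and 6.07 and in wild-type arrays at 6.61, 6.29, 6.21, 6.22 and 6.29. The null arrays of Wdr12 lay below all wild-type arrays, though not below all heterozygous ones, and the difference was -0.17 (limma adjusted p = 0.199). Pes1 differed by -0.02, and none of the 3 partners was called in this comparison. The probe set kept for Wdr12 is numbered among genes of another chromosome than its own, as described with Fbl below.

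Noc3l encodes a protein that, with its partner Noc2l, accompanies immature large subunits through the nucleus. The signal of Noc3l was 6.03, 5.81, 6.12, 6.18 and 5.78 in null arrays 1 to 5, 6.01, 6.12, 6.11, 6.12 and 6.20 in the heterozygous arrays and 6.38, 6.23, 6.12, 6.11 and 6.13 in the wild-type arrays. Null arrays 2 and 5 were lowest, and wild-type array 1 was highest. Noc3l differed by -0.21 between null and wild-type (95% interval -0.38 to -0.04; limma adjusted p = 0.114). Ftsj3 encodes a methyltransferase of the large subunit precursor. Ftsj3 measured 7.01, 7.29, 7.19, 7.10 and 6.91 in the 5 null arrays, 7.19, 7.21, 7.31, 7.21 and 7.31 in the heterozygous arrays and 7.40, 7.23, 7.19, 7.14 and 7.21 in the wild-type arrays. Null and wild-type arrays of Ftsj3 overlapped, with null array 5 lowest, and the difference was -0.13 (limma adjusted p = 0.258). Nop2, an RNA methyltransferase of the large subunit, differed by -0.13, Nip7 by -0.10, Ebna1bp2 by -0.09 and Brix1 by -0.06. Rrp1, Gnl2 and Nop16 lay above 0, at 0.10, 0.06 and 0.06, while Gnl3, Wdr74 and Pes1 all lay at -0.02. The 2 members below the filter had mean signals of 5.22, 4.65 and 4.87 for Rrs1 and 4.85, 4.89 and 4.87 for Rrp15 in null, heterozygous and wild-type arrays. For Rrs1 the null arrays (4.90 to 5.51) lay above all heterozygous arrays (4.34 to 4.76), and with no filter on low values the difference, null minus heterozygous, was 0.57 (limma adjusted p = 0.0174).

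None of the 12 small subunit members passed the test between null and wild-type. Of these, 9 lay below 0 and the median difference was -0.101. Rrp9 encodes a protein of the U3 particle, the RNA guide that base-pairs with the precursor and organises its early cuts. In null arrays 1 to 5 Rrp9 stood at 5.56, 6.13, 5.43, 5.54 and 5.60, in heterozygous arrays at 6.12, 6.02, 6.07, 5.95 and 5.85 and in wild-type arrays at 5.91, 5.98, 5.80, 5.96 and 6.0. Null array 2 was the highest of all 15 arrays, and the other 4 null arrays lay below every heterozygous and wild-type array. The difference, null minus wild-type, was -0.28 (95% interval -0.49 to -0.06; limma adjusted p = 0.101). Without null array 2 it was -0.40 (limma adjusted p = 0.00129), so this array decides the call. Utp18, a subunit of the UTP-B module of the processome, came nearest to the threshold among members that were not called. The signal of Utp18 was 6.47, 6.16, 6.30, 6.47 and 6.49 in null arrays 1 to 5, 6.43, 6.44, 6.43, 6.57 and 6.67 in the heterozygous arrays and 6.64, 6.61, 6.64, 6.48 and 6.65 in the wild-type arrays. Null array 5 lay at the lower end of the wild-type range, and the other null arrays lay below it. The difference was -0.23 (95% interval -0.38 to -0.07; limma adjusted p = 0.0622).

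Heatr1 belongs to the UTP-A module, which binds the precursor first, as do Wdr43, Wdr75 and Utp15. Heatr1 measured 6.61, 6.78, 6.65, 6.61 and 6.59 in the 5 null arrays, 6.80, 6.84, 6.66, 6.76 and 6.70 in the heterozygous arrays and 6.96, 6.79, 6.80, 6.68 and 6.74 in the wild-type arrays. The null and wild-type arrays of Heatr1 overlapped, with a difference of -0.15 (limma adjusted p = 0.151). In null arrays 1 to 5 Wdr43 stood at 7.99, 7.81, 7.71, 7.67 and 7.67, in heterozygous arrays at 7.70, 7.67, 7.78, 7.65 and 7.68 and in wild-type arrays at 7.75, 7.67, 7.56, 7.54 and 7.72. Wdr43 had its highest value in null array 1, and its difference was 0.12 (limma adjusted p = 0.277). Wdr75 and Utp15 differed by -0.04 and 0.01. The estimates of the 4 UTP-A members thus differed in sign, but none was called. The 95% intervals of Wdr43, Wdr75 and Utp15 included 0, so a shared direction cannot be told from these values. Utp20 is a large scaffold protein of the processome. The signal of Utp20 was 6.23, 6.29, 6.32, 6.20 and 6.11 in null arrays 1 to 5, 6.16, 6.30, 6.34, 6.46 and 6.38 in the heterozygous arrays and 6.31, 6.44, 6.30, 6.30 and 6.39 in the wild-type arrays. Utp20 differed by -0.12 with overlapping arrays (limma adjusted p = 0.258). Rrp12 acts in the late steps of the small subunit and in export of subunits. Rrp12 measured 6.21, 6.67, 6.54, 6.46 and 6.25 in the 5 null arrays, 6.46, 6.69, 6.69, 6.62 and 6.67 in the heterozygous arrays and 6.65, 6.60, 6.51, 6.68 and 6.64 in the wild-type arrays. Rrp12 was low in null arrays 1 and 5 and within the wild-type range in null arrays 2 and 3, with a difference of -0.19 (limma adjusted p = 0.155). Bysl and Tsr1, which act on the nearly finished small subunit, differed by -0.20 and -0.03, and Noc4l and Nop14, which bind each other, by -0.08 and 0.06.

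The 250 bases before the start are given for the 2 small subunit members nearest the threshold and for Nop2, a large subunit member that holds 2 of the motifs. Capitals mark matches, in either orientation, to the CCAAT box bound by NF-Y, the E-box CACGTG, the ETS core written CCGGAAG and the GC box GGGGCGGGG bound by Sp1. Utp18 and Nop2 are the only 2 of 37 members with CACGTG in these 250 bases (5.41%, against 6.63% of protein-coding promoters). The sequences are from RefSeq on GRCm38.p6, at chr9:106477059-106477308 on the plus strand for Rrp9, chr11:93885767-93886016 on the minus strand for Utp18 and chr6:125131633-125131882 on the plus strand for Nop2.
Rrp9: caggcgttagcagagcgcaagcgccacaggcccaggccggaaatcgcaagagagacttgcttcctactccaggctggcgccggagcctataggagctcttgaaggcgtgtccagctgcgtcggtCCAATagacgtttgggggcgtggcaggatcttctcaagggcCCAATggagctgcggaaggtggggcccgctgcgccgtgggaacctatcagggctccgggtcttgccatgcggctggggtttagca
Utp18: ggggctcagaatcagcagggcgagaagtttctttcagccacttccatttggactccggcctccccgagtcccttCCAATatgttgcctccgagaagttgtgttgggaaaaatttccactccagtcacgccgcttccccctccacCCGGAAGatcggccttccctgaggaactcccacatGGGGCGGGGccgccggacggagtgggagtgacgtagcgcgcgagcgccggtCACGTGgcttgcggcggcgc
Nop2: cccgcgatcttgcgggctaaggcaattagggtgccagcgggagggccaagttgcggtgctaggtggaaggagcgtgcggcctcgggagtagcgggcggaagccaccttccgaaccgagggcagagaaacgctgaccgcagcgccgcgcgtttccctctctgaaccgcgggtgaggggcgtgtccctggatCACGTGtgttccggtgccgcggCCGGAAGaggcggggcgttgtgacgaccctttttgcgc

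Among the 37 members with a promoter in the reference table, the motif CCGGAAG, the core recognised by ETS family factors, was present in 15 (40.5%) within 250 bases before to 50 bases after the start on either strand. It was present in 11.6% of protein-coding promoters of the same length. CACGTG, the E-box bound by Myc with Max and by other factors, was present in 6 members (16.2%), against 7.84% of protein-coding promoters. The GC box GGGGCGGGG was present in 8 members (21.6%), against 15.4%, and the CCAAT box in 11 (29.7%), against 38.2%. The motif TCGCGAGA was present in 3 members (8.11%), against 1.41%. The YY1 motif AAGATGGCG was present in 1 (2.70%), against 1.83%, and the NRF1 motif GCGCATGCG in none, against 2.35%. The median GC content of the member promoters was 58.4%, against 55.6% for protein-coding promoters, and motif counts were not adjusted for it. In the 250 bases before the start alone, CCGGAAG was present in 9 members (24.3%) against 8.98%, and CACGTG in 2 (5.41%) against 6.63%, so the CACGTG share lay above the protein-coding share in one window and below it in the other.

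The estimates of the polymerase I members differed in sign between null and wild-type, and neither passed the test. Polr1a encodes the largest subunit of the enzyme. In null arrays 1 to 5 Polr1a stood at 8.79, 8.60, 8.57, 8.33 and 8.38, in heterozygous arrays at 8.17, 8.35, 8.31, 8.49 and 8.45 and in wild-type arrays at 8.35, 8.32, 8.32, 8.22 and 8.37. Null array 1 was the highest of all, null arrays 4 and 5 lay among the other genotypes, and the difference was 0.22 (95% interval 0.05 to 0.39; limma adjusted p = 0.109). Polr1b, the second largest subunit, differed by -0.12. Of 14 further genes of the polymerase I apparatus none was called between null and wild-type, with a median difference of -0.032. Taf1b, a subunit of the promoter selectivity factor, came nearest at 0.25 (limma adjusted p = 0.0563).

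None of the 3 abundant nucleolar proteins passed the test in any comparison, and Ncl and Npm1 varied more between arrays of a genotype than most members. Ncl encodes nucleolin, an RNA-binding protein. The signal of Ncl was 8.87, 8.71, 9.01, 9.27 and 9.28 in null arrays 1 to 5, 8.72, 9.0, 8.88, 9.06 and 9.04 in the heterozygous arrays and 9.03, 9.14, 9.22, 8.98 and 9.08 in the wild-type arrays. The genotypes of Ncl overlapped widely, and the difference, null minus wild-type, was -0.06 (95% interval -0.27 to 0.15; limma adjusted p = 0.753). Npm1 encodes nucleophosmin, the main scaffold of the granular nucleolus. Npm1 measured 8.53, 8.0, 8.03, 8.39 and 8.42 in the 5 null arrays, 7.72, 8.10, 7.82, 7.96 and 8.24 in the heterozygous arrays and 8.15, 8.27, 8.62, 8.16 and 8.17 in the wild-type arrays. Wild-type array 3 stood highest and heterozygous array 1 lowest, while the null and wild-type means of Npm1 were the same to 2 decimals (95% interval of the difference -0.26 to 0.26). The residual SD of Npm1 within genotypes was 0.218, the highest of the 39 members, against a median of 0.122 over all genes tested. Nolc1, which escorts both kinds of guide particle, differed by 0.002 between the null and wild-type means.

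The estimates of the 3 box C/D members lay below 0 between null and wild-type and above 0 between heterozygous and wild-type. Of all genes, 46.1% and 48.5% lay below 0 in these comparisons. No box C/D member passed the test in either. Their 95% intervals all included 0, so a shared direction cannot be told from these values. Fbl encodes fibrillarin, the methyltransferase of the box C/D particles. In null arrays 1 to 5 Fbl stood at 5.92, 6.47, 5.98, 6.13 and 6.29, in heterozygous arrays at 6.36, 6.40, 6.42, 6.52 and 6.40 and in wild-type arrays at 6.31, 6.41, 6.46, 6.11 and 6.14. Null arrays 1 and 3 were lowest and null array 2 lay with the other genotypes, which gave a difference of -0.13 (95% interval -0.33 to 0.07; limma adjusted p = 0.440). Nop56 and Nop58, its paired core proteins, differed by -0.03 and -0.11. The probe set kept for Fbl lies, in probe set number, mostly among genes of chromosome 17, while the gene and a second probe set lie on chromosome 7. That second probe set averaged 5.79 in null, 6.17 in heterozygous and 5.85 in wild-type arrays, and fell in null tissue by 0.39 against heterozygous when all probe sets were tested (limma adjusted p = 0.0411). The same holds for Wdr12, whose kept probe set is numbered among genes of chromosome 7 although the gene lies on chromosome 1. Its second probe set differed by -0.22 between null and wild-type, with a limma adjusted p of 0.233.

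Between null and heterozygous choroid plexus, 4 members fell in null tissue and none rose. Of all genes tested 7.93% were called in this comparison, and 3.61% of all genes were called lower, against 10.3% of the members. Mrto4 and Nop10 were joined by Bop1, at 80.0% of the heterozygous level (log2 difference -0.32, 95% interval -0.50 to -0.15, limma adjusted p = 0.0276). The fourth was Rrp9, at 78.5% (log2 difference -0.35, 95% interval -0.56 to -0.14, limma adjusted p = 0.0423). The median difference over the 39 was -0.098, against 0.008 over all genes, and 25 of 39 (64.1%) lay below 0, against 47.6% of all genes. This comparison shares its null arrays with that of null and wild-type. Without null arrays 1 and 5 the count was 2, Mrto4 and Nop10, with 3.28% of all genes called, and Bop1 and Rrp9 stood at -0.26 and -0.30 (limma adjusted p = 0.134 and 0.180). Without null array 2 it was 10 (25.6%), of which Brix1 and Npm1 were higher in null arrays, while the share of all genes called was 18.0%. It was 2 (5.13%) without any one of null arrays 1, 3, 4 and 5 or of heterozygous arrays 2, 3 and 4. In those settings 3.54% to 8.01% of all genes were called.

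No member was called between heterozygous and wild-type, nor was any of the 10069 genes, a background of 0%, while 381 genes had an unadjusted p under 0.05. The median difference of the 39 members was 0.010, and 19 (48.7%) lay below 0, against 48.5% of all genes. Mrto4 stood at 0.23 (95% interval 0.06 to 0.40), Npm1 at -0.31 (95% interval -0.56 to -0.05) and Bop1 at 0.18 (95% interval 0.00043 to 0.35), each with a limma adjusted p of 0.994. The arrays of Mrto4 overlapped, from 7.12 to 7.46 in heterozygous and from 6.90 to 7.23 in wild-type mice.

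Set against the midpoint of null and wild-type, 1 member passed the test. Heterozygous Mrto4 lay 0.42 above that midpoint (95% interval 0.27 to 0.57; limma adjusted p = 0.0394), and it was 1 of the 6 genes of 10069 (0.0596%) called in this comparison. Bop1 stood at 0.25 (limma adjusted p = 0.222) and Npm1 at -0.31 (limma adjusted p = 0.281), neither of them called. The median over the 39 was 0.039, with 13 (33.3%) below 0, against 50.7% of all genes. This comparison is built from the same genotype means as those above, so it is not separate evidence. The call of Mrto4 depended on single arrays. Leaving out any one of wild-type arrays 1, 3, 4 and 5, heterozygous arrays 2, 3, 4 and 5 or null array 3 ended it, with differences between 0.39 and 0.44 and limma adjusted p between 0.0509 and 0.152. Without null arrays 1 and 5 it was 0.41 (limma adjusted p = 0.0549). Without null array 2 there were 3 calls, Mrto4, Bop1 and Rrp9, among 126 of all genes.

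Members were not uniformly low in null arrays. Null arrays had between 9 and 20 of the 39 members above the mean of the gene over all arrays, heterozygous arrays between 20 and 31 and wild-type arrays between 8 and 34. Wild-type array 4, with 8, was the lowest of all 15. It held the lowest wild-type value for 21 members (53.8%), against 27.7% of all genes tested. Wild-type array 1 held the highest for 16 (41.0%), against 26.9%. Null array 2 held the highest null value for 15 members (38.5%) and the lowest for 9 (23.1%), against 33.4% and 23.1% of all genes tested. The residual SD within genotypes ran from 0.051 for Noc4l to 0.218 for Npm1, with a median of 0.130 over the 39. Arrays of the groups did not overlap for 3 of 39 members (7.69%) between null and wild-type, namely Nop10, Mrto4 and Wdr12, against 5.96% of all genes tested, and for 2 (5.13%) between null and heterozygous, against 5.76%.

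**Figure D3:**
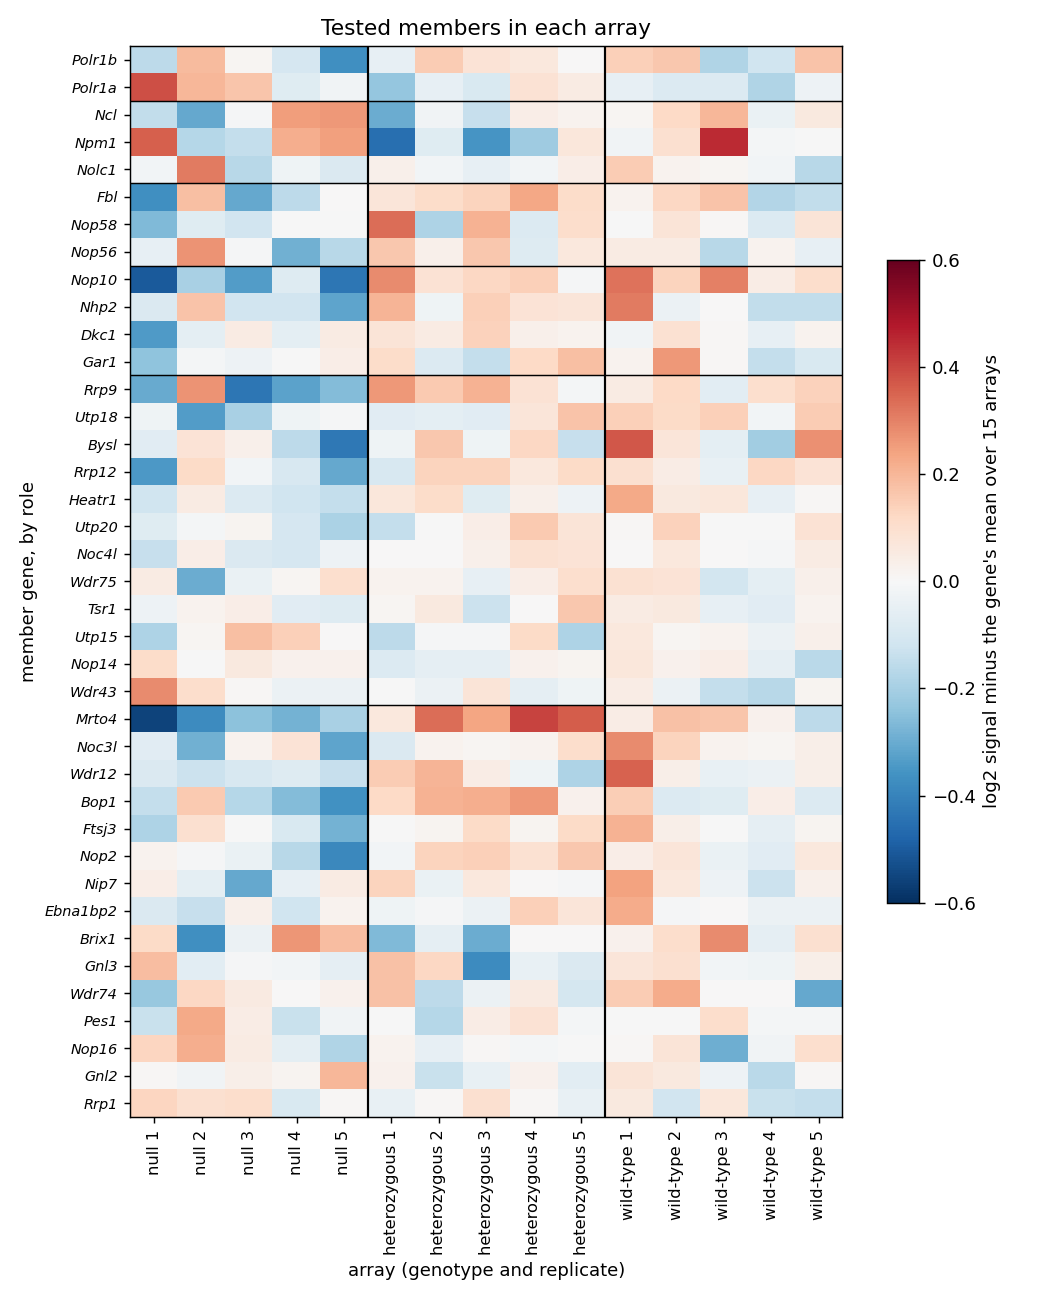
Signal of each tested member (rows, grouped by role) in each array (columns, null, heterozygous and wild-type from left to right), as the log2 signal minus the mean of that gene over the 15 arrays. Blue cells are below that mean and red cells above it. Nop10 and Mrto4 are blue in all 5 null arrays, while wild-type array 4 has only 8 members above their mean and null array 2 has 20.

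Other genes of ribosome assembly, taken from lists of textbook members, changed little between null and wild-type. Over the 3 lists, for polymerase I and for the small and large subunits, 94 of 98 genes were tested. Of these 1 rose and 2 fell (3.19% called, against 7.73% of all genes). The median difference was -0.023, with 59.6% below 0, against 46.1% of all genes. Las1l, part of the nuclease complex that cuts a spacer out of the large subunit precursor, rose by 0.33 (limma adjusted p = 0.00392). Imp4, a partner of the U3 particle, fell by 0.30 (limma adjusted p = 0.0154), and Nol8 fell by 0.28 (limma adjusted p = 0.0482). Of 13 genes of the Myc network, which regulates nucleolar genes in many cells, 8 were tested and none was called between null and wild-type. Between null and heterozygous 1 of the 8 was called (12.5%, against 7.93% of all genes). It was Mga, higher in null arrays by 0.32 (limma adjusted p = 0.0187). Myc itself lay between 3.22 and 3.76 in all arrays, below the filter. Of 9 tested p53 target genes, which respond when ribosome assembly fails in many cell types, 1 fell between null and wild-type. It was Ccng1, by 0.41 (limma adjusted p = 0.0134). That is 11.1% of the 9, against 7.73% of all genes called and 3.56% called lower. Mdm2 stood at -0.19 in the same comparison (limma adjusted p = 0.0720). None of the 9 was called between null and heterozygous.

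Some markers of cells other than the epithelium were called between null and wild-type, and none between heterozygous and wild-type. Of 5 tested markers of astrocytes and radial glia, Sox2 and Vim rose in null arrays (40.0%). So did Kdr and Cdh5 of 3 endothelial markers (66.7%) and Dcn and Pdgfra of 6 stromal markers (33.3%). Of all genes, 4.17% were called higher in this comparison. In these lists 3, 1 and 4 tested markers were not called, and Emcn of the endothelial list differed by -0.03. None of the tested neuronal, oligodendrocyte, macrophage and cycling-cell markers was called. The mean signal of all 6 endothelial markers ran from 5.80 to 6.23 in null arrays, 5.60 to 5.80 in heterozygous arrays and 5.53 to 5.89 in wild-type arrays. For stroma it ran from 7.93 to 8.41, 7.63 to 8.10 and 7.63 to 8.0 in the same order of genotypes, and for astrocytes and radial glia from 6.53 to 7.25, 6.27 to 7.33 and 6.32 to 6.52. Of the epithelial markers Aqp1 rose and Kcne2 and Kcnj13 fell, of 10 tested (30.0%, against 7.73% of all genes called). Mki67 and Top2a, markers of dividing cells, lay below the filter at 3.67 to 4.13 and 3.48 to 3.98. The part of these shifts in the differences of Nop10, Mrto4, Bop1 and Rrp9 was not tested.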

How the data were processed

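RNA from the choroid plexus of 15 mice, 5 per genotype, was hybridised to 1 single-colour Affymetrix array each, from 250 ng of total RNA per the labels' protocols. The submitters' processing notes name RMA and Affymetrix Expression Console 1.1. RMA subtracts background, makes the distribution of signals alike on every array and summarises each probe set, which removes differences in total signal. The deposited values are taken as log2 signals. The log base was inferred from their range, 1.57 to 13.89, since no label states it. The genome build was not given in the sources used here.

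Of 35556 probe sets the platform annotation, which can be old, gave 1 symbol to 21789, several to 1621 and did not list 12146. Symbols were updated by gene identifier to GRCm38.p6, where 21698 identifiers matched. Each of 19938 genes was represented by its brightest probe set (999 genes had several), and genes above 5.33, the median of named probe sets, in at least 5 arrays were tested, which left 10069. Groups are the genotype labels. The fit used limma 3.58.1 in R 4.3.3, with lmFit and eBayes, on all 15 arrays without covariates, and p-values were adjusted by Benjamini-Hochberg over the 10069 genes. Nothing beyond the labels says how the animals of a genotype are related. The fit was tested on simulated data with known changes between null and wild-type. It recovered 16% of simulated log2 changes of 0.2, 54% of 0.3, 88% of 0.5 and 96% of 1. Of the calls, 6.62% were false. Members that were not called can therefore hold differences of this smaller size.

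Values in every array are given for the 12 members with the smallest p between null and wild-type and for Ncl, Npm1, Fbl, Dkc1, Polr1a and Bop1. Members and gene lists were chosen with earlier results of these data known. Promoters came from RefSeq, matched by symbol, for 37 members; Fbl, Bop1, Npm1, Rrs1, Gnl2 and Rrp12 were not in that table. Alternatives covered the filter, probe set choice, normalization, variance model, covariates, left-out arrays and a replicate block. The number of arrays limits the precision.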

Additional observations from a re-analysis of the deposited data

Results flagged for a closer look

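Single arrays stood far from the other 4 of their genotype for 11 of the 123 groups of 5 arrays (41 members in 3 genotypes), where the gap to the nearest array exceeded 0.71 of the range of the group. Chance alone flags about 5% of groups. In the null arrays these were Dkc1 (6.24) and Gar1 (6.32), both lowest in null array 1, Gnl3 (6.60), highest in the same array, Rrp9, highest in null array 2 (6.13), and Gnl2, highest in null array 5 (7.37). In the heterozygous arrays Rrs1, which lay below the filter, was lowest in array 4 (4.34). In the wild-type arrays Npm1 (8.62) and Pes1 (7.73) were highest in array 3, Wdr12 (6.61) and Ebna1bp2 (8.22) in array 1, and Utp18 was lowest in array 4 (6.48). Null array 1 is one of the 2 arrays with Xist signal.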

How the results depend on the processing

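No called member reversed direction. Nop10 and Mrto4 each passed the test between null and wild-type in 27 of 28 alternatives, Nop10 failing with the sample description number as a covariate, a number of unstated meaning that was higher in null samples (-0.43, limma adjusted p = 0.0808), and Mrto4 with Xist as a covariate (-0.36, limma adjusted p = 0.0517). Mrto4 passed in all 28 between null and heterozygous and Nop10 in 27, while Bop1 passed in 17 of 28 and Rrp9 in 10 of 27. Mrto4 against the midpoint passed in 11 of 27. Members called between null and wild-type numbered 4 with array weights (10.3%, against 13.1% of all genes) and 1 with the description number (2.56%, against 2.55%), compared with 2. Leaving out single arrays gave 2 to 5 members (5.13% to 12.8%), against 3.87% to 14.1% of all genes. Between null and heterozygous the called members numbered 7 with array weights (17.9%, against 12.9% of all genes) and 1 with the description number (2.56%, against 1.94%), compared with 4. The count was 2 (5.13%) with only the genotypes compared, with Xist as a covariate or without the 2 null arrays with Xist signal. In these 3 settings 3.41%, 2.46% and 3.28% of all genes were called, against 7.93% in the main fit. Leaving out single arrays gave 2 to 10 members (5.13% to 25.6%), against 3.54% to 18.0% of all genes. The median member difference between null and heterozygous was -0.061 with Xist as a covariate and -0.058 without those 2 null arrays, against -0.098. Against the midpoint the count was 2 with array weights (78 of all genes), against 1. It was 0 with no filter, the lowest-mean probe set, median-centred arrays, the description number or Xist as a covariate. Without the 2 null arrays with Xist signal or with the replicate block it was also 0. In these settings with no member called, 0 to 4 of all genes were called, against 6. Leaving out single arrays gave 0 to 3 members and 0 to 126 of all genes. Centring arrays on the median gave a median difference, heterozygous minus wild-type, of -0.03, against 0.01. The cause of these changes was not tested. Replicate numbers did not pair the arrays: same-numbered arrays correlated between -0.25 and 0.24, 4 of 15 pairs over 0.1, and 1 array correlated best with its own number. The replicate block left 2 calls between null and wild-type (5.13%, against 5.14% of all genes) and 3 between null and heterozygous (7.69%, against 5.46%). Of the uncalled members, 14 of 37 between null and wild-type, 19 of 39 between heterozygous and wild-type, 9 of 35 between null and heterozygous and 13 of 38 against the midpoint changed sign in at least 1 alternative. With 5 arrays per genotype and a median residual SD of 0.122, small differences cannot be told from 0.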
